A study of Mus musculus with 38 samples.

Results

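The genes described here are 10 members of the mouse BCL2 family, taken from their symbols and found by Ensembl identifier in all 3 deposited count tables, among 55487 gene rows per table. They fall into 3 roles: the survival genes Bcl2, Bcl2l1 and Mcl1, the effectors Bax and Bak1, and the BH3-only genes Bcl2l11, Bbc3, Pmaip1, Bid and Bad. RNA was sequenced in 38 libraries of 18 groups from 3 kinds of mouse cell. BV2 is an immortalised microglial line, GL261 is a glioma line that stably carries pEGFP-N1, and BMDM are primary macrophages grown from the bone marrow of WT animals. All cells spent 16 h in normoxia, at 21% oxygen, or in hypoxia, with oxygen below 0.1%. The first experiment grew each cell type on its own, as a monoculture, or together in contact, at 2 GL261 cells to 1 BV2 cell or 1 GL261 cell to 1 BMDM. In the second experiment BV2 and BMDM monocultures received DMSO at either oxygen level, or the histone deacetylase inhibitor panobinostat at 10 nM, given in hypoxia only. BV2 cells were kept in medium with 2% serum and BMDM in medium with 10% serum, so these cell types differ in medium as well. Groups held 2 libraries, except the BMDM co-cultures with 3 at each oxygen level. The labels of the co-cultured GL261 libraries do not name the partner cell, which is taken to be BV2 because they were deposited in 1 table with BV2, and how co-cultured cells were separated before RNA extraction is not given in the sources used here.

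BCL2 family proteins decide whether the outer mitochondrial membrane stays intact. BCL2, BCL-XL (from Bcl2l1) and MCL1 bind and restrain the pore-forming effectors BAX and BAK, and BH3-only proteins either occupy the survival proteins or activate the effectors directly. When BAX or BAK opens the membrane, cytochrome c escapes and caspases are activated. Bbc3 (PUMA) and Pmaip1 (NOXA) are classical p53 target genes that also respond to stress without p53, Bcl2l11 encodes BIM, BID is cut by caspase 8 to link death receptors to mitochondria, and BAD is held inactive by phosphorylation. MCL1 is a short-lived protein. RNA levels say nothing of the phosphorylation, cleavage or binding by which most of these proteins are governed.

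Libraries held 9634700 to 27238900 counts, so that 3 counts correspond to 0.110 to 0.311 CPM (counts scaled to a common library size). CPM below are scaled by trimmed-mean (TMM) factors within 1 cell type and experiment. The labels call the BV2 and GL261 libraries biological replicates. For the BMDM and panobinostat libraries nothing says that they came from separate cultures or animals, so their p-values measure the spread between these samples, which may be technical. Differences were tested with the edgeR quasi-likelihood test over all genes passing its low-count filter, and a gene is called changed at a Benjamini-Hochberg adjusted p under 0.05. All 10 members passed that filter in BV2 and BMDM. In GL261, 9 passed and Pmaip1 did not. The 13 macrophage and microglia markers summed to 2210 to 3188 CPM in BV2 and to 13070 to 18310 CPM in BMDM monocultures of the first experiment, and to 6.79 to 20.2 CPM in GL261 monocultures. The microglial genes Tmem119 and P2ry12 stood at 1.8 and 7.2 CPM in normoxic BV2 monocultures, with Aif1 at 1.6 and Cx3cr1 at 1.3. Of the 9 glioma markers, Fabp7 was at 0.1 CPM in normoxic GL261 monocultures, while Sox2 and S100b reached 397 and 728 CPM. The BMDM libraries of the panobinostat experiment stood apart: their 5 fibroblast and stroma markers summed to 2673 to 23237 CPM, against 105.1 to 226.4 CPM in BMDM monocultures of the first experiment.

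The promoters of 3 genes that carry the hypoxia results are shown first. Each is the stretch of 250 bases before a RefSeq transcription start on GRCm38.p6 (mm10), read toward the gene, with every ACGTG or GCGTG on either strand in capitals. These letters are the core of the element bound by hypoxia-inducible factors. Bbc3, which had the largest rise of the members in BV2, has 3 listed starts, of which the outer pair is shown. Mcl1 rose with it, and Bid had the largest fall.
Bbc3, chr7:16309333-16309582, plus strand: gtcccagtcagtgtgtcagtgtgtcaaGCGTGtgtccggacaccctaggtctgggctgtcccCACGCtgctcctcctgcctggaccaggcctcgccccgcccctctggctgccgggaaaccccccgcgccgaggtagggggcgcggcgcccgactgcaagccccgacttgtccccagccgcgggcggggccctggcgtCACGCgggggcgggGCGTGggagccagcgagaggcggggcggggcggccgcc
Bbc3, chr7:16310181-16310430, plus strand: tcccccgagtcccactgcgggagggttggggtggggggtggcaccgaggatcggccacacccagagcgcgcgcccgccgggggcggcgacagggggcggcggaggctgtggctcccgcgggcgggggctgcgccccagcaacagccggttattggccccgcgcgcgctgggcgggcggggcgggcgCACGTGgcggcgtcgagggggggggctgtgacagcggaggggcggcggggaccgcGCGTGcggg
Mcl1, chr3:95658471-95658720, plus strand: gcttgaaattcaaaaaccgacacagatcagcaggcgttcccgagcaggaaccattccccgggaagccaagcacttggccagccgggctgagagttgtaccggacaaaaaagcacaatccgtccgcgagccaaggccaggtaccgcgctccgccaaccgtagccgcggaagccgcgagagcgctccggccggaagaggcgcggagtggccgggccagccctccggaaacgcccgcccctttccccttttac
Bid, chr6:120916825-120917074, minus strand: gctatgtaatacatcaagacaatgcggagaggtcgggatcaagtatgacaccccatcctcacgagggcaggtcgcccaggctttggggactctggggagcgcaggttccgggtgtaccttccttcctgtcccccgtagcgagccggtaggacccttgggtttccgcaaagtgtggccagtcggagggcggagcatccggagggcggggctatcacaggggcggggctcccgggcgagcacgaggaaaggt

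The upstream window of Bbc3 held 4 matches, at 223, 188, 52 and 38 bases before that start, and the downstream window held 3, of which the pair at 64 and 63 bases before the start share the palindrome CACGTG. Neither the Mcl1 nor the Bid window held one, and the windows of Bak1 and Bcl2 did not either. Over 32851 promoter windows of this length, 38.6% held at least 1 match, and among the 9 members with a listed window 5 had a match in at least 1 of theirs, in 8 of their 15 windows (Bcl2l11, Bcl2l1, Bbc3, Bax and Bad). No window was listed for Pmaip1. A match describes the letters only and is no measure of binding.

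Positions are those of GRCm38 (mm10). Bbc3 (ENSMUSG00000002083) is at chromosome 7, 16308393 to 16318205, plus strand. Mcl1 (ENSMUSG00000038612) is at chromosome 3, 95658788 to 95663176, plus strand. Bid (ENSMUSG00000004446) is at chromosome 6, 120891930 to 120916853, minus strand, and 17.7% of its exonic bases are also exonic in Bcl2l13 on the opposite strand. The libraries were stranded, but whether the authors' counting used strand is not given in the sources used here, so reads in such stretches cannot be assigned with certainty. The same holds for 20.5% of the exonic bases of Bad, shared with Gpr137, for 18.2% of those of Bak1, shared with Ggnbp1, and for 6.09% of those of Bcl2, shared with an antisense transcript. Bax shares 12.2% with Gm45808 on its own strand. Bcl2l1, Mcl1, Bcl2l11, Bbc3 and Pmaip1 share no exonic base and no 75-base word with another annotated gene.

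Per kilobase of exon, Mcl1 had the highest level of the 10 genes in all 3 normoxic monocultures. It stood at 108 ± 4.34 CPM per kb (SD, n = 2) in BV2, 58.8 ± 1.32 in GL261 and 121 ± 4.63 in BMDM. Bcl2 was the lowest in BV2 and BMDM, at 2.02 ± 0.104 and 1.23 ± 0.172 CPM per kb, and stood at 3.87 ± 0.579 in GL261. Bcl2l1 lay between them at 17.2 ± 1.5, 19.4 ± 1.83 and 23.9 ± 0.167 CPM per kb in BV2, GL261 and BMDM. On this scale Bak1 was above Bax in BV2 (57.7 ± 9.73 against 25 ± 3.13) and in GL261 (42.6 ± 6.97 against 27.3 ± 3.5), and below it in BMDM (87.5 ± 3.28 against 107 ± 0.296). These orders rest on the union of annotated exons as length and were not tested.

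Of the members tested, Bid, Bcl2l11 and Bbc3 had the largest differences in level between BV2 and GL261. In a joint fit of the normoxic monocultures, 8 of 10 members differed between the lines, 6 higher and 2 lower in BV2, where 73.2% (33.8% higher, 39.4% lower) of all genes tested were called. The median log2 difference was 0.55 over the members and -0.12 over all genes. Bid stood at 112 and 104 CPM in the BV2 libraries and at 10.9 and 12.5 CPM in the GL261 libraries, a log2 difference of 3.32 (SE 0.16, edgeR adjusted p 9.55e-13). Bcl2l11 had 62.4 and 76.5 CPM in BV2 and 8.19 and 8.32 CPM in GL261, a difference of 3.19 (SE 0.14, edgeR adjusted p 1.85e-13). So the genes of BID and BIM were both about an order of magnitude higher in the microglial line, with no overlap between libraries. Bbc3 went the other way, with 7.01 and 7.71 CPM in BV2 and 40.7 and 41.4 CPM in GL261, a difference of -2.36 (SE 0.16, edgeR adjusted p 2.08e-10).

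Pmaip1 was not detected in GL261 monocultures. All 4 of those libraries had 0 counts, at both oxygen levels, while BV2 had 30.2 and 37.9 CPM in normoxia and 30.4 and 32 CPM in hypoxia. Against the level that 3 counts give in 1 library, Pmaip1 was at least 202-fold higher in normoxic and at least 182-fold higher in hypoxic BV2 monocultures; these floors cover counting error only. BMDM monocultures had 10.7 and 8.12 CPM in normoxia. Co-cultured GL261 libraries held 7 and 5 counts in normoxia and 3 and 3 in hypoxia, and the RNA of partner cells in these libraries, estimated below, would account for up to 69.8% of that level in normoxia and 45.7% in hypoxia.

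Smaller differences separated the other genes. Mcl1 was 0.99 (SE 0.12, edgeR adjusted p 6.56e-07) higher on the log2 scale in BV2 than in GL261, Bak1 0.56 and Bad 0.55 higher, and Bcl2 differed by -0.82 (SE 0.15, edgeR adjusted p 1.01e-04). Without the first normoxic BV2 library the Bak1 and Bad differences lost their calls (adjusted p 0.0666 and 0.134), and Bad also without the second GL261 library (0.179). Bax and Bcl2l1 were not called, with log2 differences of -0.01 (95% interval -0.31 to 0.29) and -0.05 (-0.34 to 0.23). In the panobinostat experiment, normoxic BV2 with DMSO was lower than BMDM with DMSO in Bbc3 (-1.40, SE 0.23, edgeR adjusted p 9.50e-04), Mcl1 (-0.91, SE 0.29, edgeR adjusted p 0.0273) and Bax (-0.82, SE 0.25, edgeR adjusted p 0.0235) and higher in Bid (0.81, SE 0.25, edgeR adjusted p 0.0229), 4 of 10 members called where 44.2% (17.1% higher, 27.1% lower) of all genes were. With the replicate number as a block Pmaip1 was called too, 0.91 higher in BV2 (adjusted p 0.0177). Of the 4 calls without the block only that of Bbc3 held on leaving out any of the 4 libraries compared. Mcl1 was lost without the first BMDM or either BV2 library (adjusted p up to 0.202), Bax without any of the 4 (up to 0.121) and Bid without the first BMDM or first BV2 library (up to 0.182). In bulk RNA, fewer cells expressing a gene and less RNA per cell cannot be told apart.

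**Figure D1:**
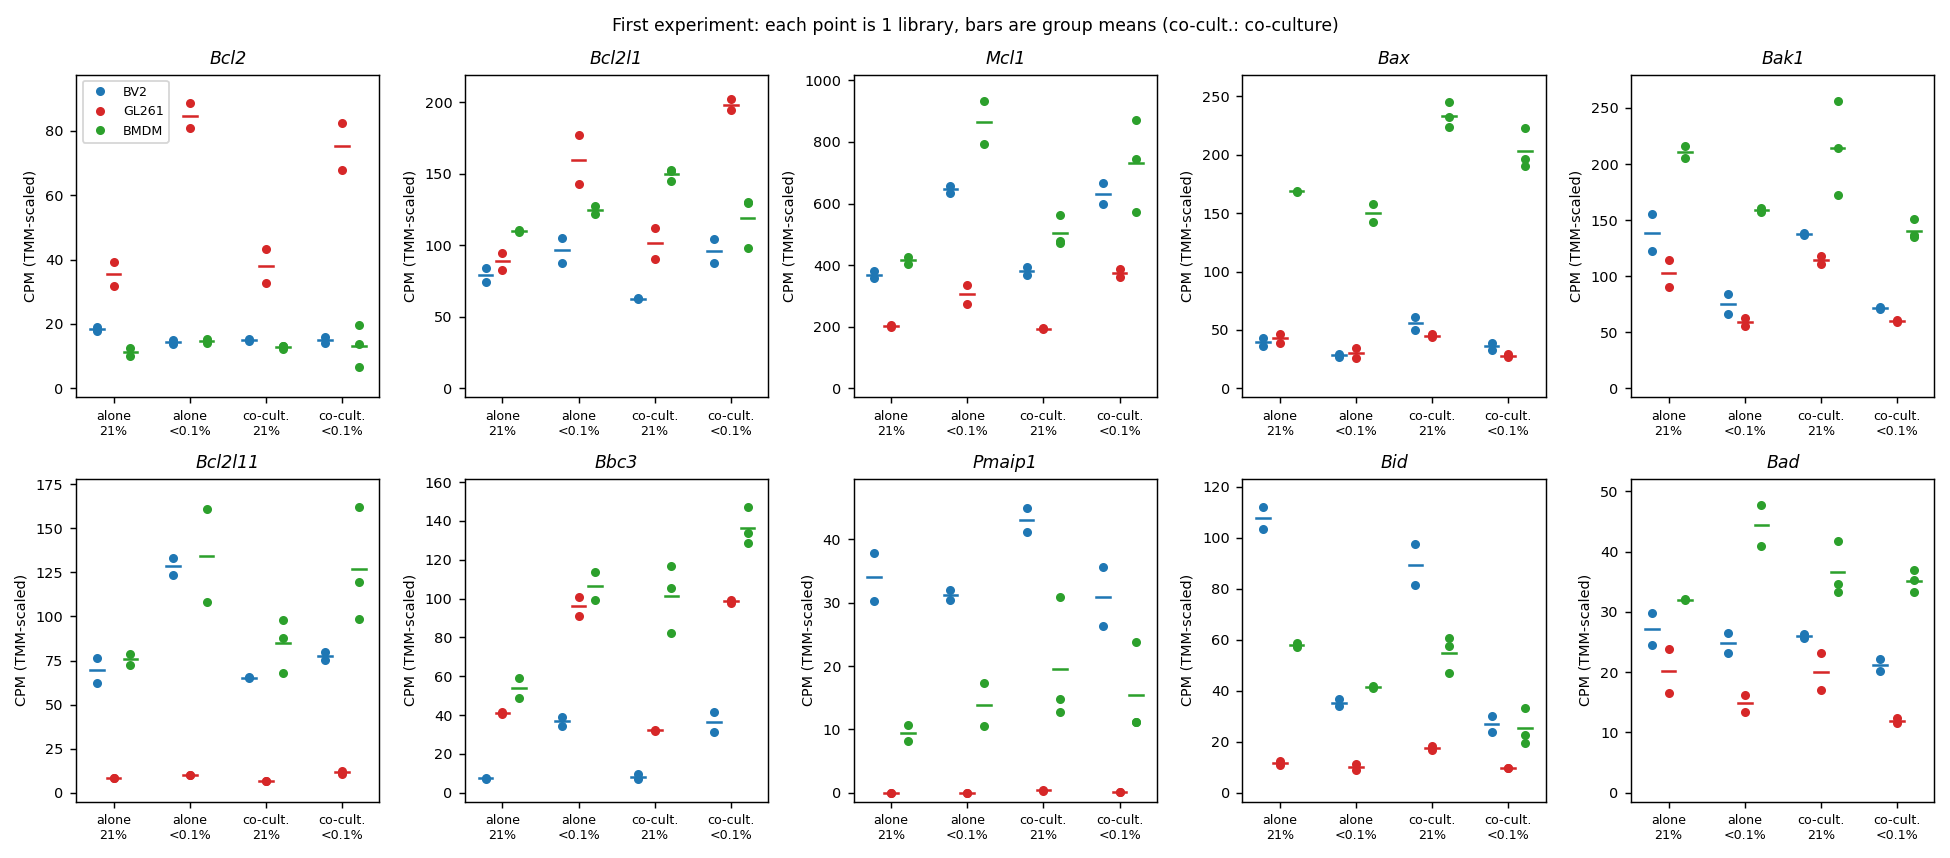
TMM-scaled CPM (vertical axes, linear) of the 10 genes in each library of the first experiment, by culture and oxygen (horizontal axes), with BV2 in blue, GL261 in red and BMDM in green. Points are libraries and bars are group means: in GL261, Bcl2l11 is low throughout, at 6.69 to 12.3 CPM, and Pmaip1 is at most 0.455 CPM. Bid is highest in normoxic BV2, and Bbc3 is higher in the hypoxic than in the normoxic libraries of BV2 and GL261.

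The main question of the first experiment is how each cell type responds to hypoxia, alone and in co-culture. In BV2 monocultures 7 of 10 members changed, 3 higher and 4 lower, where 61.9% (30.9% higher, 31% lower) of all genes tested were called, so that the share of members called is near the background. In BV2 from co-culture 7 of 10 changed as well, 3 higher and 4 lower, against 67.3% (35.2% higher, 32.1% lower) of all genes. With DMSO, in the second experiment, it was 5 of 10, 3 higher and 2 lower, against 37.5% (17.2% higher, 20.2% lower). Same-numbered libraries of the second experiment deviated together, and with the replicate number as a block 7 members were called there, the added ones being Bcl2 at -0.58 (adjusted p 0.0496, against 0.153 without it) and Pmaip1 at -0.60 (0.0195, against 0.113). Over all genes the median log2 change was 0.00, 0.04 and -0.03, and over the members -0.13, -0.16 and 0.02. What set the members apart from each other was their direction, gene by gene.

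Among the survival genes, Mcl1 rose in all 3 BV2 settings. It had 359 and 379.8 CPM in normoxic and 634 and 658 CPM in hypoxic monocultures, a log2 change of 0.81 (SE 0.11, edgeR adjusted p 1.03e-05). From co-culture the libraries had 369 and 393 CPM in normoxia and 598 and 666 CPM in hypoxia, a change of 0.73 (SE 0.11, edgeR adjusted p 2.75e-05). No hypoxic library of either culture overlapped the normoxic ones. With DMSO, Mcl1 went from 272 and 319 to 594 and 530.1 CPM, a change of 0.93 (SE 0.23, edgeR adjusted p 0.0109) that missed the threshold without the first hypoxic library (adjusted p 0.0667).

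Bcl2l1 rose in BV2 from co-culture, from 63.3 and 62.2 to 104 and 87.7 CPM (0.61, SE 0.13, edgeR adjusted p 4.84e-04), and with DMSO, from 68.2 and 62.9 to 173 and 94.9 CPM (1.03, SE 0.28, edgeR adjusted p 0.0169). The 2 hypoxic DMSO libraries were far apart, and without the first of them the adjusted p was 0.197, and without the second normoxic library 0.0752. In monoculture the change of 0.29 (SE 0.13, edgeR adjusted p 0.054), from 83.8 and 74.1 to 105 and 87.8 CPM, was not called. That change was called with DESeq2 size factors (adjusted p 0.0364), the replicate block (0.0312) and a fit of only the groups compared (0.0425). Dropping genes that averaged under 5 CPM gave a call too (adjusted p 0.0165). The DESeq2 Wald test and the run with no filter beyond 1 count did not call it. Bcl2 had 17.8 and 19.2 CPM in normoxia and 13.9 and 15.1 CPM in hypoxia in BV2 monoculture. This change of -0.35 was called at an adjusted p of 0.0345 and lost its call without any 1 of the 4 libraries (adjusted p 0.0593 to 0.215), by the DESeq2 Wald test (0.13), with no filter beyond 1 count (0.0888) and with a filter at a mean CPM of 5 (0.083). In co-culture the change was -0.01 (95% interval -0.28 to 0.27).

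The effectors fell. Bak1 had 155 and 122 CPM in normoxic and 84.5 and 66.5 CPM in hypoxic BV2 monocultures, a log2 change of -0.88 (SE 0.13, edgeR adjusted p 3.00e-05), and changed by -0.95 (SE 0.14, edgeR adjusted p 1.36e-05) in co-culture. Bax had 42.9 and 35.9 CPM in normoxia and 29.8 and 27 CPM in hypoxia (-0.47, SE 0.14, edgeR adjusted p 0.00829), and 50.3 and 61.1 against 32.7 and 39.1 CPM in co-culture (-0.64, SE 0.14, edgeR adjusted p 7.92e-04). Both genes were lower in every hypoxic than in every normoxic library of the same culture. The Bax call in monoculture was lost without the first normoxic (adjusted p 0.103) or the second hypoxic library (0.0765). With DMSO, Bak1 fell by 0.61 on the log2 scale (adjusted p 0.0405), a call lost without the second normoxic or either hypoxic library (adjusted p up to 0.218), with no low-count filter (0.066) and in a fit of only the groups compared (0.106). Bax was not called there, at 51.7 and 59.4 CPM in normoxia and 52.2 and 54.7 CPM in hypoxia (log2 change -0.06, 95% interval -0.43 to 0.32).

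The BH3-only genes split. Bbc3 rose several-fold: its CPM were 7.01 and 7.71 in normoxic and 34.4 and 39 in hypoxic monocultures, 4.98-fold on the fitted scale. Its log2 change was 2.32 (SE 0.18, edgeR adjusted p 1.43e-08) in monoculture, 2.13 (SE 0.18, edgeR adjusted p 3.44e-08) in co-culture and 1.89 (SE 0.22, edgeR adjusted p 3.48e-04) with DMSO. Bid fell in the same libraries, from 112 and 104 to 33.9 and 36.8 CPM in monoculture, a change of -1.61 (SE 0.13, edgeR adjusted p 3.73e-08). It changed by -1.73 (SE 0.14, edgeR adjusted p 1.85e-08) in co-culture and by -1.41 (SE 0.22, edgeR adjusted p 0.00118) with DMSO. For these 2 genes every hypoxic BV2 library lay apart from every normoxic one in all 3 settings, and each call held in every alternative run.

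The Bcl2l11 change was called in BV2 monocultures and not in the other BV2 settings. It had 62.4 and 76.5 CPM in normoxia and 124 and 133 CPM in hypoxia, a log2 change of 0.89 (SE 0.12, edgeR adjusted p 6.62e-06). In co-culture the values were 65.5 and 65 CPM and 79.8 and 75.1 CPM (0.25, SE 0.12, edgeR adjusted p 0.0775), and with DMSO the change was 0.32 (adjusted p 0.314). Pmaip1 fell in co-culture, from 41.2 and 45 to 35.6 and 26.4 CPM (-0.48, SE 0.15, edgeR adjusted p 0.0105), a call lost without the second normoxic or the second hypoxic co-culture library (adjusted p 0.0758 and 0.0806). In monoculture its change was -0.12 (95% interval -0.42 to 0.17). Bad had 29.8 and 24.6 CPM in normoxic and 26.5 and 23.2 CPM in hypoxic monocultures (-0.13, SE 0.13, edgeR adjusted p 0.418), and 25.7 and 26.4 against 22.1 and 20.1 CPM in co-culture (-0.30, SE 0.14, edgeR adjusted p 0.0635). It was not called in either. The co-culture change was called with no filter beyond 1 count (adjusted p 0.0255), with the replicate block (0.0458) and in a fit of only the groups compared (0.0335). Without the first hypoxic library it was -0.45.

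**Figure D2:**
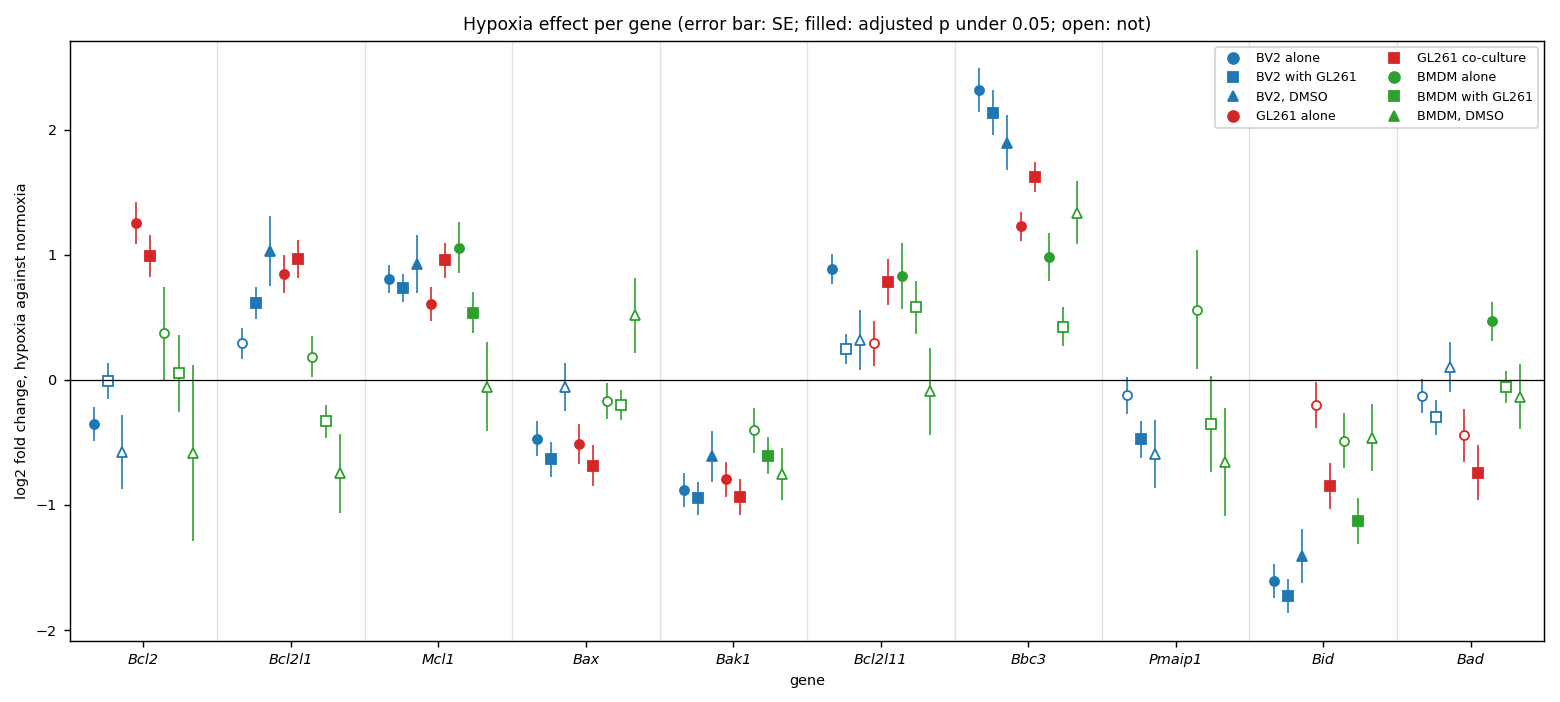
Log2 fold change of hypoxia against normoxia (vertical axis) for each gene (horizontal axis) in the 8 settings with both oxygen levels, with the SE as error bar; colours mark the cell type, symbols the culture, and filled symbols an adjusted p under 0.05. Bbc3 lies above 0 and Bak1 and Bid lie below 0 in every setting, while Bcl2 is called higher in both GL261 settings and in no other.

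All 3 survival genes rose with hypoxia in GL261. In GL261 monocultures 6 of the 9 members tested changed with hypoxia, 4 higher and 2 lower, against 44.6% (23.2% higher, 21.4% lower) of all genes, and in GL261 from co-culture all 9 changed, 5 higher and 4 lower, against 52.4% (26.8% higher, 25.6% lower). The members' median log2 change was 0.29 and 0.78, and that of all genes -0.03 and -0.04. Bcl2 rose; in monoculture it had 31.7 and 39.2 CPM in normoxia and 80.8 and 88.7 CPM in hypoxia (1.26, SE 0.17, edgeR adjusted p 1.63e-04). From co-culture the values were 32.6 and 43.2 against 67.9 and 82.6 CPM (0.99, SE 0.17, edgeR adjusted p 5.30e-04).

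Bcl2l1 and Mcl1 were also called higher in both GL261 cultures. Bcl2l1 had 94.8 and 82.9 CPM in normoxic and 177 and 142 CPM in hypoxic monocultures (0.85, SE 0.15, edgeR adjusted p 0.00111), and changed by 0.97 (SE 0.15, edgeR adjusted p 3.15e-04) in co-culture. Mcl1 had 198 and 204 against 336 and 275 CPM (0.60, SE 0.14, edgeR adjusted p 0.00392), and changed by 0.95 (SE 0.14, edgeR adjusted p 1.51e-04) in co-culture. Each of these 6 calls held in every alternative run.

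The effectors fell in GL261 as in BV2. Bak1 went from 114 and 90.6 to 62.7 and 55.4 CPM in monoculture (-0.79, SE 0.14, edgeR adjusted p 9.37e-04) and changed by -0.94 (SE 0.14, edgeR adjusted p 2.20e-04) in co-culture. Bax went from 47 and 39.2 to 26 and 34.5 CPM (-0.51, SE 0.16, edgeR adjusted p 0.0221) and changed by -0.68 (SE 0.16, edgeR adjusted p 0.00434) in co-culture. The libraries of the oxygen levels did not overlap for either gene. Without the first normoxic or first hypoxic library the monoculture Bax call was lost (adjusted p 0.16 and 0.215).

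Of the BH3-only genes, Bbc3 rose from 40.7 and 41.4 to 90.9 and 101 CPM in GL261 monocultures (1.23, SE 0.12, edgeR adjusted p 2.06e-05) and from 32.4 and 31.7 to 99.4 and 97.7 CPM in co-culture (1.62, SE 0.12, edgeR adjusted p 2.42e-06). Bcl2l11, low in this line, rose in co-culture from 6.69 and 6.76 to 12.3 and 10.9 CPM (0.78, SE 0.18, edgeR adjusted p 0.00399), and Bid fell there from 18.5 and 16.6 to 9.59 and 9.86 CPM (-0.85, SE 0.19, edgeR adjusted p 0.00259). In monoculture neither was called, at 0.29 (adjusted p 0.204) and -0.20 (adjusted p 0.399). The difference between the cultures was itself not called for any member. Bad fell in co-culture by 0.74 on the log2 scale (adjusted p 0.0143), a call lost without the first normoxic or the first hypoxic co-culture library (adjusted p up to 0.161).

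The difference in hypoxia response between BV2 and GL261 monocultures was tested as an interaction, and was called for 4 of 10 members, 2 higher and 2 lower in BV2, against 37.4% (18.7% higher, 18.7% lower) of all genes. Bcl2 differed most, by -1.51 (SE 0.22, edgeR adjusted p 2.88e-05) on the log2 scale, with a rise in GL261 and a change of -0.35 in BV2 whose call most alternatives did not keep. Bid differed by -1.30 (SE 0.22, edgeR adjusted p 1.10e-04) and Bbc3 by 1.19 (SE 0.22, edgeR adjusted p 2.50e-04), with the larger fall and the larger rise in BV2. Bcl2l11 differed by 0.69 (SE 0.18, edgeR adjusted p 0.00561), a call lost without the second normoxic GL261 library (adjusted p 0.0503). The median interaction over all genes was 0.15. For Bax, Bak1 and Mcl1 the difference was 0.14 (95% interval -0.29 to 0.58), 0.01 (-0.38 to 0.41) and 0.30 (-0.03 to 0.64), none called. For Pmaip1, at 0 counts in the GL261 libraries compared, no difference in response can be estimated.

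In BMDM monocultures 4 of 10 members were called higher in hypoxia and none lower, against 23.9% (13.3% higher, 10.6% lower) of all genes called. Mcl1 had 404 and 426 CPM in normoxia and 793 and 933 CPM in hypoxia (1.06, SE 0.20, edgeR adjusted p 0.00463). Bbc3 had 59.3 and 48.8 against 99.5 and 114 CPM (0.98, SE 0.19, edgeR adjusted p 0.00474). Thus the survival gene with the highest level and the BH3-only gene Bbc3 moved in the same direction here as in the lines. Bcl2l11 had 78.9 and 72.7 against 108 and 161 CPM (0.83, SE 0.26, edgeR adjusted p 0.0415), and Bad 32 and 32.1 against 47.8 and 40.9 CPM (0.47, SE 0.16, edgeR adjusted p 0.0492). None of the 4 calls held on leaving out each library in turn. Mcl1 was lost without the first normoxic library (adjusted p 0.0601), Bbc3 without the second normoxic or second hypoxic one (up to 0.0737), Bcl2l11 without either normoxic or the second hypoxic one (up to 0.337) and Bad without any of the 4 (up to 0.338). Bad was also lost by the DESeq2 Wald test (0.0742), with DESeq2 size factors (0.062) and with no filter beyond 1 count (0.281). Bak1 and Bid were lower in both hypoxic than in both normoxic libraries without being called. Bak1 had 205 and 216 CPM in normoxia and 157 and 161 CPM in hypoxia (-0.40, SE 0.18, edgeR adjusted p 0.132), and Bid 58.8 and 57.2 against 41 and 41.7 CPM (-0.49, SE 0.22, edgeR adjusted p 0.132). A fit of only the groups compared called both lower (adjusted p 0.00624 and 0.00379), and Bid was also called with no filter beyond 1 count (0.0416).

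From co-culture, with 3 libraries per group, 3 of 10 members changed in BMDM, 1 higher and 2 lower, against 34.8% (17.5% higher, 17.3% lower) of all genes. Bid fell, with 60.6, 57.4 and 46.9 CPM in normoxia and 33.3, 22.7 and 19.7 CPM in hypoxia (-1.13, SE 0.18, edgeR adjusted p 9.39e-04). Bak1 had 214, 173 and 256 against 151, 137 and 135 CPM (-0.61, SE 0.15, edgeR adjusted p 0.00892). For these genes every hypoxic library was below every normoxic one. Mcl1 had 477, 562 and 471 against 746, 574 and 872 CPM (0.54, SE 0.17, edgeR adjusted p 0.0264), a call lost without normoxic library 1 or 3 or hypoxic library 3 (adjusted p 0.0769 to 0.0927) and in a fit of only the 2 groups (0.0655). Same-numbered libraries of these groups deviated together, and with the replicate number as a block 5 members were called. The added calls were Bbc3 at 0.44 (adjusted p 0.0317, against 0.0515 without the block) and Bcl2l11 at 0.59 (0.0468, against 0.0568). Bcl2 ranged from 6.55 to 19.7 CPM over the 3 hypoxic libraries, a spread that covers the normoxic values. Partner RNA, estimated below, would make up 7.38%, 45% and 36.1% of the Bcl2 level in hypoxic libraries 1, 2 and 3. Library 2 had the lowest level, and by the 30-fold rule given below its share would be 57.5%.

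With DMSO, hypoxia changed none of the 10 members in BMDM by the edgeR test, where 0.483% (0.469% higher, 0.0134% lower) of all genes were called, and 2 members had an unadjusted p under 0.05. With no filter beyond 1 count 3259 of 25946 genes were called, against 72 of 14914, and Bbc3 was the 1 member among them (adjusted p 0.0031). Same-numbered libraries deviated together here too, and with the number as a block 2127 of 14914 genes were called, with Bbc3 again the 1 member, at 1.33 (adjusted p 0.0251). The DESeq2 Wald test called 2, Bbc3 and Bak1. Bbc3 stood at 27 and 27 CPM in normoxia and 69.9 and 66.4 CPM in hypoxia (1.34, SE 0.25, edgeR adjusted p 0.0729), and Bak1 at 157 and 169.5 against 96.3 and 97.4 CPM (-0.75, SE 0.21, edgeR adjusted p 0.109). Mcl1, at 597 and 385 CPM in normoxia and 374 and 572 CPM in hypoxia, overlapped between the groups. The common coefficient of variation between replicates was 0.381 in these libraries, against 0.222 for the BMDM libraries of the first experiment and 0.0958 for its BV2 libraries. Their stroma markers summed to 20453 to 23237 CPM in normoxia and 2673 to 13838 CPM in hypoxia, and their macrophage markers to 19053 to 28676 and 4176 to 11172 CPM. The part of this in the members' values was not tested. The hypoxia response of BV2 and BMDM with DMSO was not called different for any member (10 tested, 0.664%, with 0.458% higher and 0.207% lower, of all genes called, 3 members at an unadjusted p under 0.05). The largest difference was that of Bcl2l1, 1.85 (SE 0.47, edgeR adjusted p 0.0843), which was called by the DESeq2 Wald test (adjusted p 0.0118) and with the block (0.0202).

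Co-culture itself moved few members. In normoxic BV2 only Bax changed, 1 of 10 against 14.9% (5.77% higher, 9.14% lower) of all genes. It had 42.9 and 35.9 CPM alone and 50.3 and 61.1 CPM with GL261 (0.50, SE 0.14, edgeR adjusted p 0.0231), and the call was lost without the second monoculture (adjusted p 0.255) or second co-culture library (0.249). In hypoxic BV2 only Bcl2l11 changed, 1 of 10 against 15.7% (8.13% higher, 7.57% lower). It had 124 and 133 CPM alone and 79.8 and 75.1 CPM with GL261 (-0.73, SE 0.12, edgeR adjusted p 4.89e-04), and this call held in every alternative run. The hypoxic co-cultures thus lay near the normoxic level of the BIM gene, 62.4 and 76.5 CPM alone. The interaction of co-culture and hypoxia for Bcl2l11 was -0.64 (SE 0.17, edgeR adjusted p 0.0565), just above the threshold, so that no member of 10 was called where 2.19% (1.16% higher, 1.03% lower) of all genes were. The DESeq2 Wald test called Bcl2l11 (adjusted p 0.0208), and over the alternatives its interaction ran from -0.79 to -0.49.

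No member of 9 differed between co-cultured and monocultured GL261 by edgeR, in normoxia (0.514%, with 0.323% higher and 0.191% lower, of all genes called, 2 members at an unadjusted p under 0.05) or in hypoxia (1.39%, with 0.889% higher and 0.5% lower, 1 member), nor by the DESeq2 Wald test. Their interaction of co-culture and hypoxia was not called for any of 9 (0% of all genes, 2 members at an unadjusted p under 0.05). In normoxic BMDM, Bbc3 alone was called in the reported fit, 1 of 10 against 1.64% (1.57% higher, 0.0675% lower) of all genes. It had 59.3 and 48.8 CPM alone and 117, 106 and 82 CPM with GL261 (0.91, SE 0.18, edgeR adjusted p 0.0305). The groups did not overlap, but the call was lost without the first co-culture library (adjusted p 0.0544), the second (0.0786) or either monoculture library (up to 0.356), and when genes 4-fold higher in GL261 were left out of the test (0.0698). Among the alternatives for normoxic BMDM, Pmaip1 was called with no filter beyond 1 count (1.03, edgeR adjusted p 0.00162). Bax was called there by the DESeq2 Wald test (0.46, adjusted p 0.0219). In hypoxic BMDM no member of 10 was called by edgeR (7.11%, with 4.06% higher and 3.05% lower, of all genes, 3 members at an unadjusted p under 0.05), and the DESeq2 Wald test called Bax and Bid. Their values were 0.44 (edgeR adjusted p 0.0751) and -0.72 (0.0571). The BMDM interaction was not called for any member (4 at an unadjusted p under 0.05, 0% of all genes called).

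Co-cultured libraries carried some RNA of the partner cell. Over genes whose level in the partner's monoculture exceeded theirs at least 100-fold, their level was 0.758% of that in the GL261 monocultures in normoxic and 2.2% in hypoxic BV2 co-cultures, 0.771% and 0.241% of that in BV2 in the GL261 co-cultures, and 2.4% (1.34% to 3.71%) and 3.6% (1.66% to 5.94%) of that in GL261 in the 3 BMDM co-culture libraries each. At these shares GL261 RNA would make up at most 0.324% of the Bcl2l11 level, 1.99% of the Bax level and 1.1% of the Mcl1 level in hypoxic BV2 co-cultures, and 0.788% of the Bax level in normoxic ones. For Bcl2 in hypoxic BV2 co-cultures it would be up to 14.5%, and for Bbc3 up to 6.6%. In BMDM co-cultures it would be up to 1.83% of the Bbc3 level in normoxia and 3.06% of the Bid level in hypoxia. In GL261 co-cultures BV2 RNA would make up at most 9.6% of the Bcl2l11 and 5.4% of the Bid level in normoxia. In hypoxia it would be at most 2.89% and 1.02%. By a 30-fold rule the shares were higher. They averaged 0.804% in normoxic and 2.35% in hypoxic BV2 co-cultures, 0.838% and 0.303% in GL261 and 2.77% and 4.57% in BMDM.

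The panobinostat comparison asks how histone deacetylase inhibition changes hypoxic cells. In BV2, 2 of 10 members changed, both higher, against 14.6% (7.21% higher, 7.39% lower) of all genes called; with the replicate number as a block it was again 2, where 4025 of 13294 genes were called. Pmaip1 had 21.4 and 28.9 CPM in normoxic DMSO, 12.7 and 20.6 CPM in hypoxic DMSO and 43.4 and 45.4 CPM with panobinostat, and its log2 change by the drug was 1.41 (SE 0.27, edgeR adjusted p 0.0117). The treated libraries were the highest of the 6. Bid had 91.2 and 81.7, then 34.7 and 30.6 and then 71.8 and 54.1 CPM, a change by the drug of 0.95 (SE 0.21, edgeR adjusted p 0.0192). The treated level of Bid lay between those of hypoxia and normoxia with DMSO. The comparison with panobinostat and that of hypoxia share the hypoxic DMSO libraries, so the opposite signs for Bid are not independent. Pmaip1 missed the threshold without either treated library (adjusted p 0.0534 and 0.055), and Bid without either treated or the second hypoxic DMSO library (adjusted p 0.0527 to 0.229).

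The other 8 members were not called in BV2. Bbc3 had 47.6 and 38.4 CPM with DMSO and 29.8 and 30.3 CPM with the drug, without overlap (-0.51, SE 0.21, edgeR adjusted p 0.126). Bcl2l11 had 54.2 and 81.4 against 81.2 and 88 CPM (0.32). The survival genes Mcl1, Bcl2l1 and Bcl2 differed by -0.20 (95% interval -0.65 to 0.25), -0.06 (-0.60 to 0.49) and 0.10 (-0.49 to 0.68). For these genes the intervals span changes in either direction.

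In BMDM panobinostat changed none of the 10 members by edgeR, where 0% of all genes were called, and 3 members had an unadjusted p under 0.05. That share rests on the settings: 2867 of 25946 genes were called with no filter beyond 1 count, 66 of 14914 with DESeq2 size factors and 53 of 10818 with a filter at a mean CPM of 5. Same-numbered libraries of this experiment deviated together, and with the replicate number as a block 2044 of 14914 genes and 3 members were called. These were Pmaip1 at 2.51 (adjusted p 0.0215), Bak1 at -0.81 (0.0495) and Bbc3 at -0.93 (0.0459). Without the block, Pmaip1 had the largest value: 7.14 and 8.53 CPM with DMSO and 38.9 and 51.2 CPM with the drug, a log2 difference of 2.52 (SE 0.45, edgeR adjusted p 0.0636). Both treated libraries were above all 4 DMSO libraries, of which the normoxic ones had 7.6 and 17 CPM. The DESeq2 Wald test called it (adjusted p 4.57e-05), together with Bak1 (-0.79, 0.035). By edgeR Bak1 was at -0.81 (SE 0.21, edgeR adjusted p 0.0894), with 96.3 and 97.4 against 58.6 and 52 CPM, and Bbc3 at -0.92 (SE 0.25, edgeR adjusted p 0.0943), with 69.9 and 66.4 against 42.1 and 29.9 CPM. In the treated libraries macrophage markers summed to 1327 to 5451 CPM and stroma markers to 8757 to 14357 CPM, against 4176 to 11172 and 2673 to 13838 CPM in hypoxic DMSO, and the part of this in the members' values was not tested. The effect of panobinostat was not called different between BV2 and BMDM for any of 10 members (0.0251%, with 0.0188% higher and 0.00627% lower, of all genes called, 1 member at an unadjusted p under 0.05). For Pmaip1 that difference was -1.12 (95% interval -2.17 to -0.07).

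**Figure D3:**
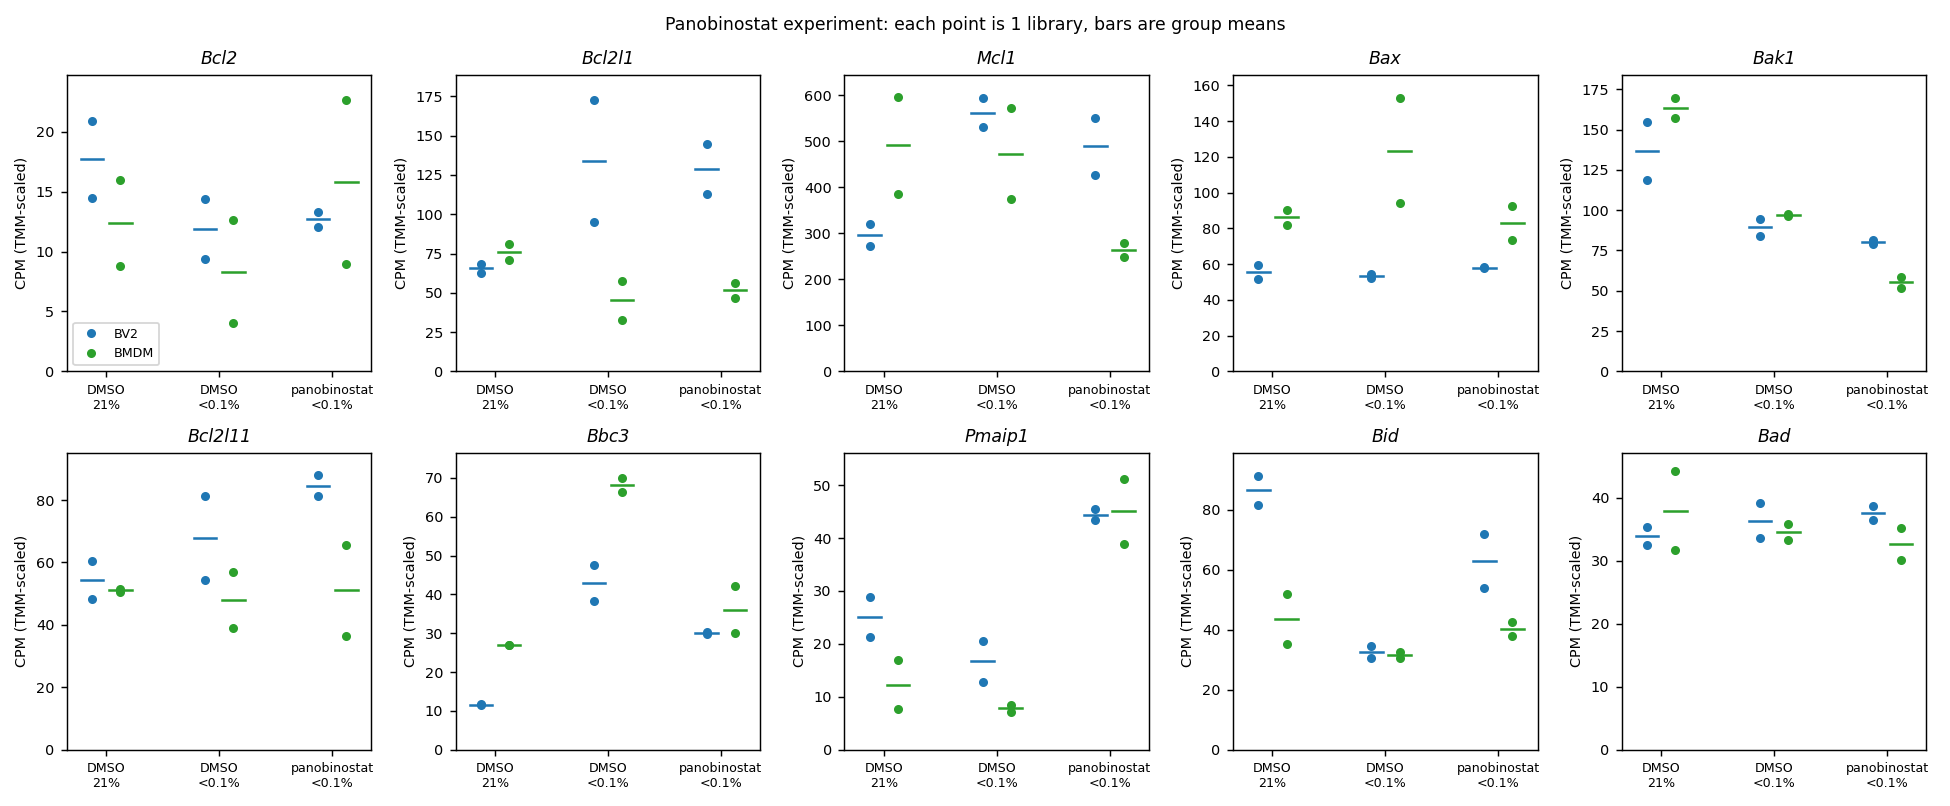
TMM-scaled CPM (vertical axes, from 0) of the 10 genes in each library of the panobinostat experiment, for normoxic DMSO, hypoxic DMSO and hypoxic panobinostat (horizontal axes), with BV2 in blue and BMDM in green. Points are libraries and bars are group means: Pmaip1 is highest with panobinostat in both cell types, at 43.4 and 45.4 CPM in BV2 and 38.9 and 51.2 CPM in BMDM.

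Count ratios within a library need no scaling between libraries. The ratio of Bax to Bcl2 counts was 1.48 and 0.999 in normoxic and 0.321 and 0.389 in hypoxic GL261 monocultures, and 1.34 and 1.08 against 0.395 and 0.355 in co-culture. Every hypoxic GL261 library thus held over 2 times as many Bcl2 as Bax reads, while the normoxic ones held about as many or fewer, the second monoculture having 735 Bcl2 and 734 Bax counts. In BV2 monocultures the ratio was 2.41 and 1.87 in normoxia and 2.15 and 1.79 in hypoxia, and in BMDM monocultures 16.5 and 13.6 against 9.36 and 11.2. In BV2 from co-culture it was 3.39 and 4.01 in normoxia and 2.07 and 2.77 in hypoxia, without overlap. In BMDM from co-culture it ran from 17.2 to 20.1 in normoxia and from 11.3 to 29 in hypoxia, with overlap. With DMSO it was 2.47 and 4.10 in normoxia and 3.63 and 5.81 in hypoxia in BV2, and 10.3 and 5.15 in normoxia and 38.3 and 7.44 in hypoxia in BMDM, so the libraries of the oxygen levels overlapped in both. The ratio of Mcl1 to Bcl2l1 counts was 3.70 and 3.86 in normoxic and 6.21 and 7.64 in hypoxic BMDM monocultures, and 2.09 and 2.46 against 1.89 and 1.93 in GL261. In BV2 monocultures it was 4.28 and 5.13 against 6.02 and 7.49, without overlap. The BV2 libraries overlapped in co-culture (5.82 and 6.32 against 5.74 and 7.60) and with DMSO (3.99 and 5.08 against 3.43 and 5.59). These are ratios of reads, not of transcripts, since Bcl2 is the longer gene, and they were not tested.

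**Figure D4:**
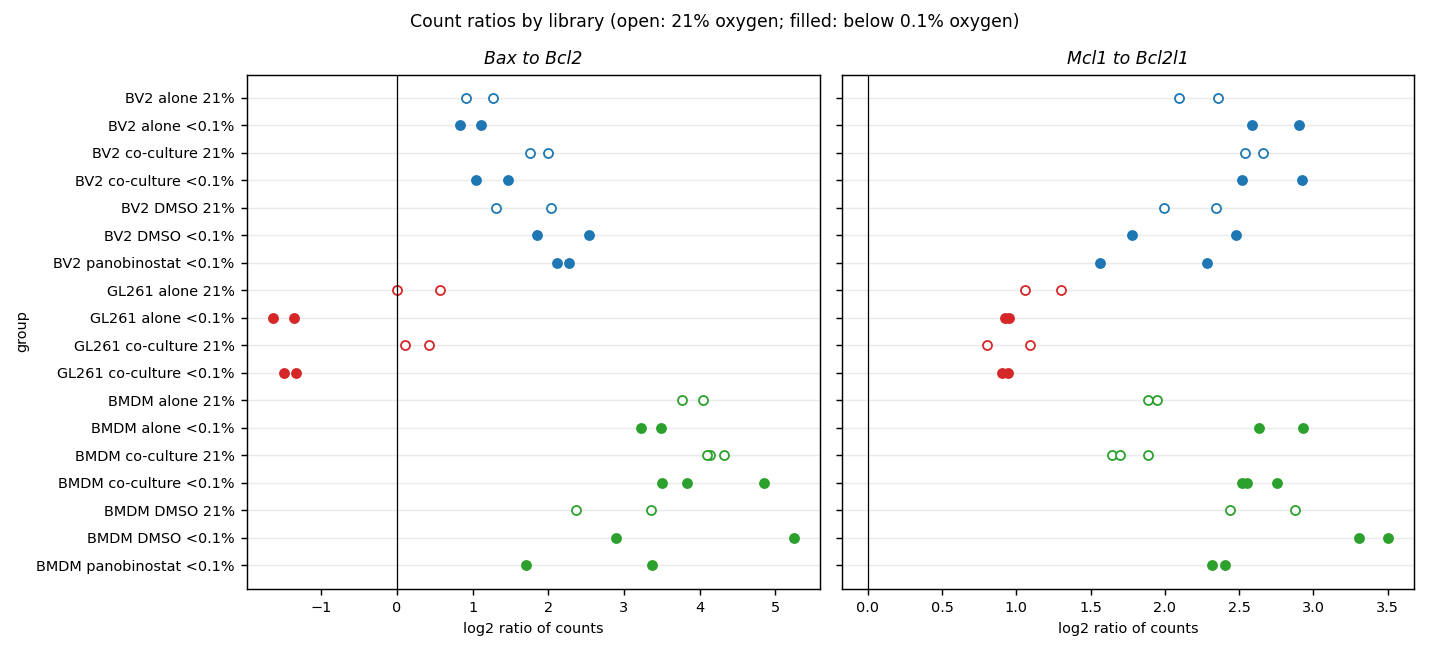
Log2 ratio of counts (horizontal axes) of Bax to Bcl2 and of Mcl1 to Bcl2l1 in every library (points) of the 18 groups (vertical axis), open at 21% and filled below 0.1% oxygen. The hypoxic GL261 libraries are the only ones far below a Bax to Bcl2 ratio of 1, between 0.321 and 0.389 in monoculture.

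Other genes of the pathway were read from 6 lists. Their counts stand against the calls over all genes, 61.9% (30.9% higher, 31% lower) in BV2, 44.6% (23.2% higher, 21.4% lower) in GL261 and 23.9% (13.3% higher, 10.6% lower) in BMDM monocultures. Among 6 further BH3-only genes, 4 of 5 tested were higher and 0 lower in hypoxic BV2 monocultures, and the numbers higher and lower were 4 and 0 of 6 in GL261 and 2 and 0 of 5 in BMDM monocultures. The list medians were 1.25, 0.98 and 0.13, against 0.00, -0.03 and 0.03 over all genes. Bnip3, a mitochondrial gene known for its induction by hypoxia, rose from 25.2 ± 1.98 to 975 ± 8.37 CPM (SD, n = 2) in BV2, by 5.28 (edgeR adjusted p 1.00e-10), and by 4.50 (edgeR adjusted p 1.60e-07) in GL261 and 4.95 (edgeR adjusted p 2.66e-06) in BMDM. Its relative Bnip3l rose by 2.84 (edgeR adjusted p 2.03e-10), 1.27 (edgeR adjusted p 2.11e-05) and 2.40 (edgeR adjusted p 2.37e-05). Some reads of these genes cannot be placed with certainty, since 34.4% of the 75-base words of Bnip3 and 16.9% of those of Bnip3l occur in other annotated genes. Hrk, a BH3-only gene known from neurons, rose in GL261 from 1.5 ± 0.599 to 12.2 ± 1.69 CPM (3.02, edgeR adjusted p 1.53e-05).

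Of the 10 survival and effector relatives, 3 of 7 tested were higher and 2 lower in BV2 monocultures, with 1 and 2 of 4 in GL261 and 1 and 1 of 7 in BMDM, and list medians of -0.26, -0.36 and 0.39. Bcl2l2, the gene of BCL-W, rose in BV2 from 18.8 ± 0.236 to 39.9 ± 2.1 CPM (1.09, edgeR adjusted p 9.20e-07). Bok, an effector relative, fell in GL261 from 11.7 ± 0.386 to 4.39 ± 0.156 CPM (-1.41, edgeR adjusted p 2.16e-04). Bcl2l13, which overlaps Bid, rose there from 64.3 ± 7.83 to 136 ± 26.7 CPM (1.08, edgeR adjusted p 4.39e-04), while Bid was not called in GL261 monocultures. The part of reads from the shared stretch in either value was not tested. Bcl2a1b, a survival gene of myeloid cells, rose in BMDM from 0.969 ± 0.0545 to 3.75 ± 1.39 CPM (1.94, edgeR adjusted p 0.024), but 68.4% of its words are shared with its copies, so its counts are uncertain.

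Downstream of the mitochondria, among 7 apoptosome and caspase genes, 3 of 7 tested were higher and 3 lower in BV2 monocultures, with 1 and 4 of 7 in GL261 and 1 and 2 of 7 in BMDM (medians -0.00, -0.62 and -0.17, against 0.00, -0.03 and 0.03 over all genes), where 61.9%, 44.6% and 23.9% of all genes were called. Cytochrome c, Cycs, fell from 163 ± 17.8 to 31 ± 1.85 CPM in BV2 (-2.39, edgeR adjusted p 2.26e-10), and changed by -0.72 (edgeR adjusted p 0.00623) in GL261 and -1.20 (edgeR adjusted p 0.0154) in BMDM, with 23.9% of its words shared with other annotated genes. Casp6 was called in opposite directions, 1.20 (edgeR adjusted p 7.06e-07) in BV2 and -0.74 (edgeR adjusted p 0.00556) in GL261. Among 11 inhibitor of apoptosis genes and their antagonists, 6 of 11 tested were higher and 3 lower in BV2, with 3 and 1 of 10 in GL261 and 2 and 2 of 11 in BMDM (medians 0.58, -0.04 and 0.06). The antagonist Htra2, a mitochondrial protease, changed by -2.01 (edgeR adjusted p 2.33e-09), -0.67 (edgeR adjusted p 0.00132) and -1.04 (edgeR adjusted p 9.42e-04). Of its words, 29.1% are shared with other annotated genes, so some of its reads are uncertain. Birc5 (survivin), which is made in dividing cells, changed by -1.68 (edgeR adjusted p 3.87e-08) in BV2 and -1.20 (edgeR adjusted p 0.0138) in BMDM.

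Of 11 genes listed for the death receptor arm, 3 of 8 tested were higher and 1 lower in BV2 monocultures, with 3 and 2 of 7 in GL261 and 1 and 0 of 10 in BMDM (medians 0.26, 0.31 and 0.07). Cflar, the caspase 8 inhibitor c-FLIP, rose by 1.81 (edgeR adjusted p 1.15e-08), 0.95 (edgeR adjusted p 7.83e-04) and 0.91 (edgeR adjusted p 0.0157). Of 13 transcriptional regulators of the family found in the tables, 7 of 11 tested were higher and 2 lower in BV2, with 9 and 0 of 11 in GL261 and 6 and 1 of 11 in BMDM (medians 1.53, 1.10 and 0.75, against 0.00, -0.03 and 0.03 over all genes), beside the same 61.9%, 44.6% and 23.9% of all genes. The stress genes Trib3 and Atf3 led in all 3 cell types. Trib3 changed by 5.05 (edgeR adjusted p 6.40e-12), 3.07 (edgeR adjusted p 3.71e-07) and 5.96 (edgeR adjusted p 7.10e-06), and Atf3 by 2.81 (edgeR adjusted p 1.49e-10), 4.38 (edgeR adjusted p 6.40e-07) and 2.79 (edgeR adjusted p 0.00112), in BV2, GL261 and BMDM. Among these regulators, 0 of 11 tested were higher and 2 lower with panobinostat in hypoxic BV2, where 14.6% of all genes were called, and Trp53 fell from 158 ± 0.526 to 94.5 ± 4.55 CPM (-0.74, edgeR adjusted p 0.0359). In the death receptor arm 1 of 8 tested were higher and 2 lower under the drug. Fas rose from 2.09 ± 1.17 to 8.32 ± 0.372 CPM (1.99, edgeR adjusted p 0.0144), and Cflar changed by -0.97 (edgeR adjusted p 0.0457). The other lists had 0 higher and 1 lower of 11 (inhibitors of apoptosis) and no call among the relatives, BH3-only and caspase genes. With the replicate number as a block, 4025 of 13294 genes were called, 0 higher and 5 lower among the regulators, 1 and 3 in the death receptor arm, 0 and 2 among the caspase genes, 1 and 1 among the inhibitors of apoptosis, 0 and 1 among the BH3-only genes and 1 and 0 among the relatives.

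Over the 18 group means, centred within each cell type and experiment, the genes most like Bbc3 among 8868 candidates were Zfp260 (Pearson r = 0.97) and Ccng2 (r = 0.96), and those most like Bid were Slc35a4 and Tcp11l1 (both r = 0.96). Bak1 was most like Sumo3 (0.98) and Rab1b (0.97), Mcl1 like Spop and Pou6f1 (both 0.94), Bcl2 like Ranbp6 (0.93) and Sepsecs (0.90), and Bcl2l1 like Klhl26 (0.92) and Map7d1 (0.91). Bax was most like Ndufa2 (0.90) and Ube2m (0.88), Bcl2l11 like Mef2d (0.89) and Acadsb (0.87), and Bad like Rpl37a (0.88) and Mcee (0.87). Between members, Bbc3 and Bid had r = -0.90 and Bbc3 and Mcl1 r = 0.81. The 18 means share libraries and oxygen levels, so these values describe the pattern only.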

How the data were processed

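The authors deposited raw counts per Ensembl gene for 38 mouse RNA-seq libraries in 3 tables. Per the submitters' processing notes, Trimmomatic 0.36, STAR 2.6, SAMtools, HTSeq 0.9.1 and deepTools were used, with Picard 2.17.1 named for the BV2 and GL261 libraries, on build mm10. Their roles, the annotation release and the strand setting are not given in the sources used here. Per the labels' protocols, cells were fixed in 3% glyoxal and polyA RNA was sequenced as paired reads of 151 bases. ATAC data of the series were not used here.

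From the counts, edgeR 4.0.16 (R 4.3.3, limma 3.58.1) was run with TMM factors, filterByExpr (minimum count 10, minimum total 15) and the quasi-likelihood test. There were 5 fits of 1 cell type and experiment, and joint fits for comparisons between cell types. Adjustment was Benjamini-Hochberg over all genes in a fit, SE is the absolute log2 fold change over the root of F, and intervals are 1.96 SE. DESeq2 1.42.0, other scalings and filters, a replicate block, fits of only the groups compared, removal of genes high in the partner and leaving out each library were alternatives. The scripts were tested on simulated data. Library totals were 13548800 to 27238900 (BV2 and GL261), 9909370 to 17000500 (BMDM) and 9634700 to 15869200 (panobinostat experiment). No 2 libraries held identical counts, and replicate pairs differed by 6.70 to 155.5 times the sampling noise (chi-square over its degrees of freedom). Same-numbered BMDM co-culture libraries correlated in their deviations at 0.605, 0.330 and 0.406 across genes, so those 3 numbers may mark pairs. The reported fits do not use this pairing, and calls with the replicate number as a block are given beside them. In the panobinostat experiment same-numbered libraries correlated at 0.232 to 0.519 over the 6 pairs of BV2 and at 0.344 to 0.685 over the 6 of BMDM. These were handled in the same way, though with 2 libraries a group both numbers give the same value. Otherwise only a number is known to be shared. The values ran from -0.202 to 0.456 in the first BV2 fit and from 0.0564 to 0.637 in that of GL261. In that of BMDM they ran from -0.0496 to 0.360. The highest of these lie within the ranges of the panobinostat experiment, so whether some of these libraries pair cannot be told.

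The 10 members, the pathway lists and the markers were chosen with earlier results of these data known. The text names all members, and from each list at most 3 called genes per comparison, those with the largest change among genes whose groups do not overlap. Some results that this rule would name are not reported here. For likeness, the 2 genes with the highest r among named genes that passed all 5 filters, at log2 CPM averaging 3 or more, are named. Promoter sequences are RefSeq's on GRCm38.p6, and gene positions come from the GRCm38 annotation.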

Additional observations from a re-analysis of the deposited data

Results flagged for a closer look

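Hypoxia changed 4 of the 10 genes differently in BV2 and GL261 monocultures, by a test of the difference itself with 2 libraries per group. That test called 37.4% (18.7% higher, 18.7% lower) of all genes, so the share of members is near the background. The log2 hypoxia effect in BV2 minus that in GL261 was -1.51 for Bcl2 (edgeR adjusted p 2.88e-05), -1.30 for Bid (1.10e-04), 1.19 for Bbc3 (2.50e-04) and 0.69 for Bcl2l11 (0.00561). The Bcl2 effect was 1.26 in GL261 and -0.35 in BV2, where its call was lost on leaving out any 1 library. For Bcl2l11 the difference lost its call without the second normoxic GL261 library. The groups have 2 or 3 libraries, too few to look for a library far from the others.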

How the results depend on the processing

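Over 235 tested results of single members and 2669 values under alternatives, 2540 stayed on their side of the threshold, 140 of them uncalled values that changed sign, 67 lost a call (55 of them on leaving out 1 library), 62 gained one and none reversed a call. Of the 62 calls, 39 held under every alternative. The cause of the changes below was not tested. The number of members called moved by more than 1.5 times as follows. With no filter beyond 1 count it was 2 in hypoxic BV2 co-culture against monoculture (1 in the reported fit), 2 in normoxic BMDM co-culture (1), 1 in hypoxic BMDM co-culture (0), 1 for hypoxia in BMDM with DMSO (0), 1 for panobinostat in BMDM (0), 1 for the BV2 interaction of co-culture and hypoxia (0) and 1 for the difference in hypoxia effect between BV2 and BMDM (0). With a filter at a mean CPM of 5 it was 5 for hypoxia in BMDM co-cultures (3), 1 in hypoxic BMDM co-culture and 1 for the BV2 interaction. The DESeq2 Wald test called 5 for hypoxia in BMDM co-cultures, 2 in normoxic and 2 in hypoxic BMDM co-culture, 2 for hypoxia in BMDM with DMSO, 2 for panobinostat in BMDM, 1 for the BV2 interaction and 1 for the BV2 and BMDM difference. Fits of only the groups compared called 2 in normoxic BV2 co-culture (1) and 2 for the level in BV2 against BMDM (4). Without genes 4-fold higher in the partner, normoxic BMDM co-culture had 0 (1). The replicate block gave 5 for hypoxia in BMDM co-cultures, 1 for hypoxia in BMDM with DMSO and 3 for panobinostat in BMDM. It gave 1 for the BV2 and BMDM difference. In these groups the numbers may pair the libraries. In BV2 of the first experiment, where only a number is known to be shared, the block gave 2 in hypoxic co-culture and 1 for the interaction. It moved no other count of members by that much. List counts with the block were added after seeing the data. Leaving out 1 library gave 0 to 1 in normoxic and 1 to 2 in hypoxic BV2 co-culture, 1 to 3 for hypoxia in BMDM monocultures (4), 2 to 4 in BMDM co-cultures, 0 to 1 in normoxic and in hypoxic BMDM co-culture, 2 to 5 for hypoxia in BV2 with DMSO (5), 0 to 2 for panobinostat in BV2 (2), 0 to 1 for the BV2 interaction, 0 to 1 for the BV2 and BMDM difference and 1 to 4 for the level in BV2 against BMDM. A library left out of a group of 2 leaves a lone one, assumed to vary like the other groups. Depth limits only Pmaip1 in GL261, where 3 counts are 0.110 CPM or more.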
